A study of Mus musculus with 9 samples.

Results

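The genes of polyamine synthesis and catabolism were followed in neutrophils sorted from 3 compartments of mice carrying pancreatic tumors. The members were chosen by gene name: the synthesis enzymes Odc1, Amd1, Srm and Sms, the antizymes Oaz1 and Oaz2, the antizyme inhibitor Azin1, and the catabolic enzymes Sat1 and Smox. All 9 had 1 row each among the 46517 genes of the deposited table, and 8 of them, all but Sms, were among the 7794 genes that entered the test because they exceeded a log2 FPKM of 0 in 3 or more libraries. C57BL/6 mice received an orthotopic transplant of pancreatic ductal adenocarcinoma cells (OT mice), and neutrophils were taken on day 27 as Ly6G.hi cells from bone marrow and as Ly6G+ cells from blood and from the tumor, with 3 libraries from each compartment. The sort kept live CD45+ cells that carried Ly6G and Ly6C and lacked lineage markers of T, B and NK cells. Per the study's methods each library pooled 5 OT mice and the 3 libraries were independent experiments with 1 transplanted tumor line, and no library from a mouse without a tumor was analysed here.

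Polyamines (putrescine, spermidine and spermine) are small cations that bind nucleic acids and are needed for translation and growth. Ornithine decarboxylase makes putrescine from ornithine, and spermidine and spermine synthases extend it with aminopropyl groups that S-adenosylmethionine decarboxylase provides. Antizymes bind ornithine decarboxylase and send it to the proteasome, antizyme inhibitor binds the antizymes in its place, and spermidine/spermine acetyltransferase and spermine oxidase run the path backwards. In myeloid cells the same ornithine can come from arginase, which links the path to arginine use.

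Antizymes are regulated by reading frame as well as by transcript level, and that site is shown because transcript values of Oaz1 and Oaz2 do not measure its use: full-length protein is made only when the ribosome shifts by 1 base at an early stop codon. In GENCODE M21 on GRCm38 the coding sequence skipped 1 base at position 80828295 of chromosome 10 in Oaz1 and at position 65686272 of chromosome 9 in Oaz2, both on the plus strand. The 51 bases around each site (chr10:80828271-80828321 and chr9:65686248-65686298), read from transcripts annotated without the skip, are given 5′ to 3′ with the in-frame stop codon in capitals.
Oaz1: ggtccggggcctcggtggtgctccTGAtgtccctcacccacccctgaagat
Oaz2: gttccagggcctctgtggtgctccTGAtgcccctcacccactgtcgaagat
The windows shared 43 of 51 bases, among them the stop codon and the base that follows it.

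The promoters of Odc1 and Smox are shown because these were the 2 members called higher in tumor neutrophils than in both other compartments. Each window of 300 bases holds the RefSeq start on GRCm38.p6 in its last 50 bases, at chr12:17544623-17544922 for Odc1 and chr2:131491612-131491911 for Smox, both on the plus strand. Capitals mark GGGCGG, the GC box, or its reverse complement CCGCCC.
Odc1: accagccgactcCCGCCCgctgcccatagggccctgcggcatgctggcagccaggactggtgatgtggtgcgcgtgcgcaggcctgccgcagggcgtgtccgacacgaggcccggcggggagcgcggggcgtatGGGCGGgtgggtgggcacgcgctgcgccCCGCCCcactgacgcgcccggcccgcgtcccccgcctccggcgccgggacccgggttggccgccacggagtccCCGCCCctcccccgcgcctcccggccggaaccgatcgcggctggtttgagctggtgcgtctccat
Smox: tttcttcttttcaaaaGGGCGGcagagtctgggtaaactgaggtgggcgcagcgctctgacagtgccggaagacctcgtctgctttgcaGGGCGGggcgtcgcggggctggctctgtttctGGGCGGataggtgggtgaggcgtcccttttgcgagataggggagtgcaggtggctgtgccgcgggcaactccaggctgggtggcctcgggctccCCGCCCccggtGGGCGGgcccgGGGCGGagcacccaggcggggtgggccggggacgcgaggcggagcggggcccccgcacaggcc
The Odc1 window held 4 matches at a GC content of 78%, and the Smox window held 6 at 71%. Over both strands GGGCGG was found in 35.7% of all 32851 promoters of this length, the E-box CACGTG in 7.15% and ACGTG, which every CACGTG contains, in 19.6%. RefSeq windows were at hand for 7 members, with 2 for Sms. CACGTG and ACGTG occurred in 1 of the Sms windows and in neither of the windows printed above. GGGCGG was found in at least 1 window of every one of these members but Oaz1, and it was added to the search after values had been seen.

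The libraries held 4580807 to 7949367 reads assigned to genes, recovered as whole reads from the steps of the deposited values for all 46517 genes. The 8 neutrophil markers (Ly6g, S100a8, S100a9, Csf3r, Cxcr2, Itgam, Mmp8, Mmp9) were detected in every library, with summed levels of 41511 to 42723 RPM (recovered reads scaled to a common sum by plain library totals) for bone marrow, 33365 to 34143 for blood and 11159 to 12948 for tumor. All 8 tumor epithelial markers (Krt7, Krt8, Krt18, Krt19, Epcam, Cdh1, Msln, Muc1) were detected in all tumor libraries, with sums of 2870 to 6171 RPM against 8.02 to 11.3 in bone marrow and 21.4 to 141 in blood. Fibroblast markers summed to 1096 to 1350 RPM in tumor against 4.78 to 9.99 in bone marrow and 0.180 to 4.25 in blood, where Lum and Pdgfrb were at 0, and acinar markers to 497 to 2183 against 1.13 to 4.91 and 2.40 to 7.47. Genes of immature granules such as Elane, Mpo and Ngp summed to 73508 to 81633 RPM for bone marrow, 1884 to 2952 for blood and 6729 to 10619 for tumor, and 6 cycling genes to 461 to 592, 27.1 to 37.9 and 185 to 322. These sums moved with compartment, and their part in the differences that follow was not tested. In sorted bulk cells, fewer cells of a type and less RNA per cell cannot be told apart.

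The deposited values carried a scale factor of 0.796 to 0.881 on the library totals in bone marrow and blood and of 1.08 to 1.22 in tumor. Scaling by plain totals instead raised the median log2 difference of all genes by 0.45 in each tumor comparison and by 0.00308 between blood and bone marrow. With it the genes called in tumor against blood went from 2194 higher and 2686 lower to 2923 higher and 1898 lower, and those against bone marrow from 1745 higher and 2566 lower to 2601 higher and 1634 lower. All differences are given on the deposited scaling, while marker sums and levels per kilobase use plain totals, and directions that turn with plain totals are named where they occur.

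Transcript levels of different members can be compared only per length, so levels were taken as RPM per kilobase of merged exons, with plain library totals. Sat1, the acetyltransferase that starts polyamine breakdown, was the most abundant member in every compartment, at 492 ± 19.2 (SD, n = 3) for bone marrow, 865 ± 62.1 for blood and 888 ± 141 for tumor, where on the deposited scaling it stood below blood. Oaz1 stood second in bone marrow and blood, at 183 ± 9.75 and 132 ± 20.2, where in blood its spread met that of Oaz2, and was at 114 ± 20.5 in tumor, below Smox at 185 ± 39.6. Odc1, the target of the antizymes, was among the 3 least abundant members everywhere, at 1.46 ± 0.169 for bone marrow, 2.27 ± 0.494 for blood and 8.94 ± 0.238 for tumor. Thus Odc1 remained at a low level in tumor neutrophils although it was one of the members that rose there.

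The remaining members lay between these ends, apart from Sms in bone marrow and tumor and both synthases in blood. Oaz2 and Azin1 were at 65.1 ± 3.06 and 55.7 ± 1.55 in bone marrow and at 39.0 ± 3.65 and 45.3 ± 6.57 in tumor, where their spreads met. In blood Oaz2 was at 111 ± 13.3, which met the spread of Smox, and Azin1 at 78.1 ± 10.04 and Smox at 81.5 ± 19.3 were not separated by their spread. Smox in bone marrow, at 22.3 ± 5.32, met the spread of Amd1 at 15.3 ± 2.80, and Amd1 reached 19.1 ± 2.17 in blood and 25.2 ± 4.78 in tumor. Srm was at 9.08 ± 2.995, 0.255 ± 0.366 and 15.7 ± 10.9, and Sms was at 0.931 ± 0.328, 0.304 ± 0.146 and 2.99 ± 0.768, so that the 2 synthases could not be ordered in blood. In tumor the spread of Srm met that of Amd1 above it and that of Odc1 below it. The Oaz1 level rests on 2558 bases of merged exons that include retained-intron transcripts, which lowers its value per kilobase relative to the spliced message.

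**Figure D1:**
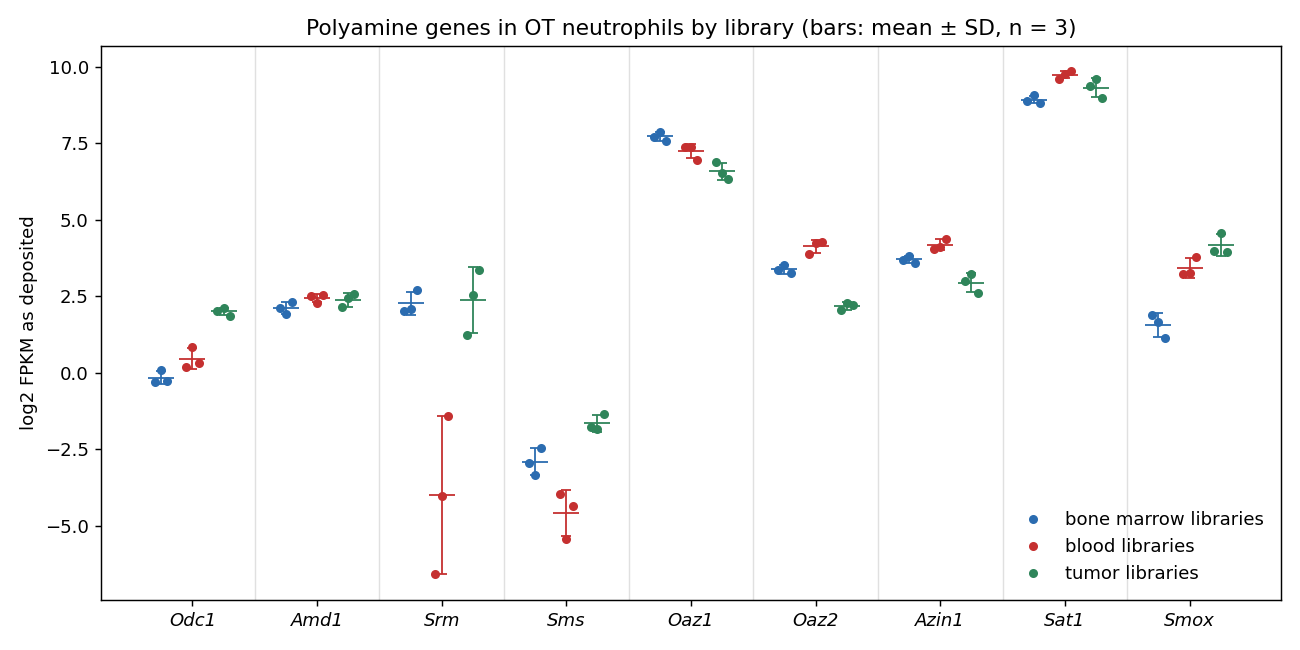
Deposited log2 FPKM (y axis) of the 9 polyamine genes (x axis) in OT neutrophils, with 1 point per library and bars for the mean ± SD of the 3 libraries of bone marrow, blood and tumor. Odc1, Sms and Smox stand highest in tumor and Oaz1, Oaz2 and Azin1 lowest, while the Srm points in blood spread from -6.59 to -1.41.

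Between tumor and blood neutrophils, Odc1, Srm and Smox were higher in tumor, Oaz1, Oaz2 and Azin1 were lower, and Amd1 and Sat1 did not pass the test, so 3 of the 8 members tested were called higher where 28.1% of all genes were, and 3 were called lower where 34.5% of all genes were. Most genes tested differed between these compartments, and the members' shares were near those of all genes. Tests were made with limma on the log2 FPKM of all 9 libraries, with Benjamini-Hochberg adjustment over all genes tested and a threshold of 0.05. The median log2 difference of the 8 members was -0.24, beside -0.17 over all genes.

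Against bone marrow, tumor neutrophils had higher Odc1 and Smox and lower Oaz1, Oaz2 and Azin1. Thus 2 of 8 members were called higher beside 22.4% of all genes, and 3 were called lower beside 32.9%, while Amd1, Srm and Sat1 did not pass. The median of the members was 0.19, beside -0.21 over all genes. Both tumor comparisons use the same tumor libraries. Called in the same direction against both compartments were 2 members higher (Odc1 and Smox), beside 16.5% of all genes, and 3 lower (Oaz1, Oaz2 and Azin1), beside 23.7%. With a replicate block, and without blood replicate 1 or 2, bone marrow replicate 2 or tumor replicate 1 or 2, Odc1 was the 1 member called higher against both, since Smox was then not called against blood.

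Blood neutrophils had higher Odc1, Oaz2, Azin1, Sat1 and Smox than bone marrow neutrophils and lower Srm. Thus 5 of 8 members were called higher, where 20.6% of all genes were, and 1 was called lower, where 23.6% were, with a median of 0.55 beside -0.042 over all genes. Amd1 and Oaz1 did not pass. The calls of Odc1 and Azin1 in this comparison lay just under the threshold and were lost in 12 of 21 and 13 of 22 alternative settings, respectively. Markers of other blood cells were also higher in the blood libraries than in bone marrow: the platelet list summed to 441 to 601 RPM against 6.89 to 11.2, the macrophage list to 1086 to 1244 against 307 to 341, the erythroid list to 245 to 471 against 26.8 to 56.7, and the lymphocyte list to 65.6 to 116 against 25.6 to 48.2. In tumor these lists summed to 3.86 to 9.90, 380 to 494, 12.9 to 139 and 6.00 to 8.75 RPM, and their part in the differences was not tested.

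**Figure D2:**
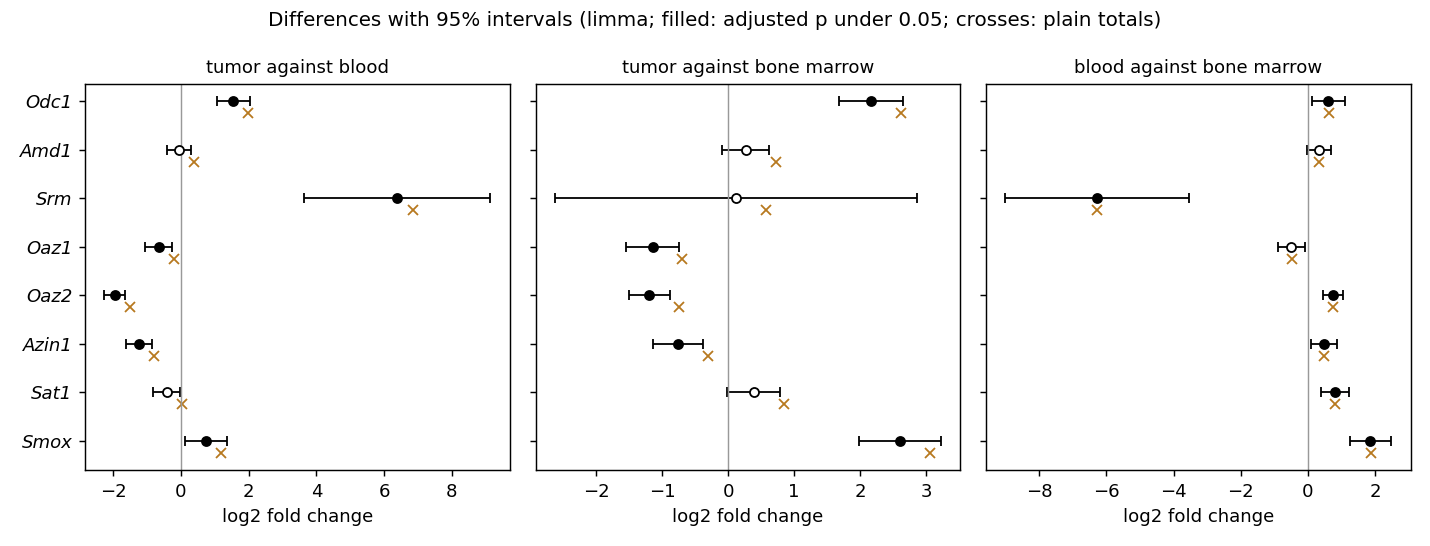
Log2 fold change (x axis) of the 8 members tested (y axis) in the 3 comparisons, with 95% intervals from limma, filled circles for an adjusted p under 0.05 and crosses for the value with plain library totals. In the tumor comparisons the crosses lie to the right of the circles, by which Amd1 and Sat1 change sign against blood, to 0.39 and 0.027, and Oaz1 comes closer to 0, at -0.21.

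Odc1 (ENSMUSG00000011179.7, GRCm38 chromosome 12, 17544794 to 17551505, plus strand) encodes ornithine decarboxylase, the first and rate-limiting enzyme of the path. The deposited log2 FPKM values were -0.29, 0.10 and -0.28 for bone marrow, 0.20, 0.84 and 0.33 for blood and 2.03, 2.11 and 1.87 for tumor. The 3 groups did not overlap, and all tumor libraries lay well above the others. Behind these values were 36, 40 and 36 reads for bone marrow, 30, 66 and 39 for blood and 168, 216 and 192 for tumor.

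Odc1 was 2.92-fold higher in tumor than in blood (log2 1.54, SE 0.21, limma adjusted p = 0.000381) and 4.47-fold higher than in bone marrow (log2 2.16, SE 0.21, limma adjusted p = 8.43e-05). Both calls held in all 21 alternatives tried, with log2 values of 1.07 to 1.99 and of 1.40 to 2.61. The step from bone marrow to blood was smaller, at 0.62 on the log2 scale (SE 0.21, limma adjusted p = 0.045), and without blood replicate 2, the highest blood library, it was 0.43 with an adjusted p of 0.126. This call was lost when any 1 library other than blood replicate 1 or bone marrow replicate 2 was left out, with log2 values of 0.43 to 0.68. Tumor replicate 3, the library with the most epithelial marker reads at 6171 RPM, had the lowest Odc1 and the highest Srm and Sms of the 3 tumor libraries, and the part of epithelial RNA in these values was not tested.

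Amd1 (ENSMUSG00000075232.4, chromosome 10, 40287458 to 40302186, minus strand) encodes S-adenosylmethionine decarboxylase, which supplies the aminopropyl donor. Its log2 FPKM was 2.11, 1.93 and 2.31 for bone marrow, 2.495, 2.29 and 2.55 for blood and 2.14, 2.43 and 2.58 for tumor. All 3 groups overlapped, and no comparison passed the test. The tumor value differed from blood by -0.056 on the log2 scale (95% interval -0.41 to 0.30, limma adjusted p = 0.771), which turned to 0.39 with plain totals. Against bone marrow the difference was 0.27 (95% interval -0.089 to 0.62, limma adjusted p = 0.177), and with plain totals it was called higher at 0.72.

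Srm (ENSMUSG00000006442.10, chromosome 4, 148591503 to 148594993, plus strand) encodes spermidine synthase. In bone marrow its log2 FPKM was 2.01, 2.07 and 2.71, from 94, 83 and 151 reads. In blood it was -6.59, -4.02 and -1.41, from 0, 1 and 6 reads. In tumor it was 1.24, 2.55 and 3.36, from 51, 154 and 285 reads. Srm was thus near the limit of detection in blood alone, and the tumor and bone marrow libraries overlapped.

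Srm was higher in tumor than in blood (log2 6.39, SE 1.18, limma adjusted p = 0.00196) and lower in blood than in bone marrow (log2 -6.27, SE 1.18, limma adjusted p = 0.00385). With so few blood reads the size of these values depends on the prior count behind the deposited logarithm, and over the alternatives they ranged from 2.49 to 7.69 and from -7.57 to -2.35, with the call kept in all 22. Between tumor and bone marrow the difference was 0.12 with a 95% interval of -2.63 to 2.86 (limma adjusted p = 0.944). With that interval a change of several fold in either direction could not be seen. The interval uses a spread shared by all 3 compartments, and the SD of log2 FPKM was 2.59 in blood, 0.38 in bone marrow and 1.07 in tumor. With only the 2 compartments compared, the difference did not pass either (limma adjusted p = 0.877). Srm in tumor was highest in replicate 3, the library with the most epithelial and acinar marker reads, and without it the difference from bone marrow was -0.37. Tumor replicate 2, with the lowest sums of both lists, stood at 2.55 against 1.24 in replicate 1. The part of epithelial and acinar RNA in Srm was not tested.

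Sms (ENSMUSG00000071708.10, chromosome X, 157443855 to 157492287, minus strand) encodes spermine synthase and was the 1 member below the expression filter. It had 42, 27 and 58 reads for bone marrow, 12, 6 and 11 for blood and 87, 102 and 151 for tumor. Its log2 FPKM of -2.94, -3.33 and -2.47, of -3.98, -5.45 and -4.35, and of -1.78, -1.84 and -1.35 gave 3 groups that did not overlap, lowest in blood and highest in tumor. In the fit without the filter it was higher in tumor than in blood (log2 2.93, SE 0.42, limma adjusted p = 0.00472), while the differences of 1.25 between tumor and bone marrow (adjusted p = 0.141) and of -1.68 between blood and bone marrow (adjusted p = 0.0763) did not pass. Both synthases were thus at their lowest in blood.

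Oaz1 (ENSMUSG00000035242.14, chromosome 10, 80826656 to 80829290, plus strand) encodes antizyme 1, whose frameshift window is printed above. The libraries gave log2 FPKM of 7.72, 7.88 and 7.59 for bone marrow, 7.37, 7.38 and 6.97 for blood and 6.88, 6.52 and 6.35 for tumor. The groups did not overlap and stepped down from bone marrow through blood to tumor. Oaz1 was 2.21-fold lower in tumor than in bone marrow (log2 -1.15, SE 0.17, limma adjusted p = 0.000808), a call kept in all 22 alternatives. Against blood it was 1.58-fold lower (log2 -0.66, SE 0.17, limma adjusted p = 0.0107), and this call was lost with plain totals (-0.21, adjusted p = 0.27), with quantile normalization and without the filter. The difference of -0.49 between blood and bone marrow had a limma adjusted p of 0.0504 and was called in 11 of 22 alternatives, with plain totals and without tumor replicate 1 or 3 among them.

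Oaz2 (ENSMUSG00000040652.14, chromosome 9, 65668001 to 65690300, plus strand) encodes antizyme 2. By mean level per kilobase Oaz2 was less abundant than Oaz1, with spreads that met in blood. Its log2 FPKM was 3.35, 3.53 and 3.25 for bone marrow, 3.90, 4.23 and 4.28 for blood and 2.05, 2.28 and 2.22 for tumor. Oaz2 therefore differed from Oaz1 in its order of compartments, since blood was highest, and no groups overlapped. It was 3.86-fold lower in tumor than in blood (log2 -1.95, SE 0.13, limma adjusted p = 1.25e-05) and 2.29-fold lower than in bone marrow (log2 -1.19, SE 0.13, limma adjusted p = 0.000163). From bone marrow to blood it rose by 0.76 on the log2 scale (SE 0.13, limma adjusted p = 0.00265), and all 3 Oaz2 calls held in all 22 alternatives.

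Both antizymes have a processed pseudogene in the table whose reads could be split from theirs by the counting. Oaz1-ps held 1.54% to 3.37% of the reads of the pair in any library and Oaz2-ps held 0.206% to 1.21%. Oaz2-ps, with 2 to 12 reads per library, was at -1.82 on the log2 scale in tumor against blood (limma adjusted p = 0.00934) and at -0.28 against bone marrow (limma adjusted p = 0.635), where Oaz2 was called. Oaz1-ps did not pass in either tumor comparison, at -0.34 (limma adjusted p = 0.435) and -0.56 (limma adjusted p = 0.225).

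Azin1 (ENSMUSG00000037458.13, chromosome 15, 38487427 to 38519266, minus strand) encodes the antizyme inhibitor, a relative of ornithine decarboxylase without its activity. Library values were, on the log2 FPKM scale, 3.69, 3.83 and 3.61 for bone marrow, 4.04, 4.12 and 4.39 for blood and 3.004, 3.21 and 2.62 for tumor. The order was that of Oaz2, highest in blood and lowest in tumor, without overlap. Azin1 was 2.36-fold lower in tumor than in blood (log2 -1.24, SE 0.16, limma adjusted p = 0.000351), in all 22 alternatives. Against bone marrow it was 1.69-fold lower (log2 -0.76, SE 0.16, limma adjusted p = 0.0053), but with plain totals the difference was -0.31 with an adjusted p of 0.0816. The rise of 0.48 from bone marrow to blood (limma adjusted p = 0.0479) was not called when any 1 of the bone marrow or blood libraries or tumor replicate 1 was left out, with log2 values of 0.37 to 0.55. An annotated gene on the opposite strand, Gm49077, overlaps exons of Azin1, and whether the counting used strand is not given in the sources used here.

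Sat1 (ENSMUSG00000025283.14, chromosome X, 155213132 to 155216449, minus strand) encodes spermidine/spermine N1-acetyltransferase, which marks polyamines for export or oxidation. Its log2 FPKM was 8.90, 9.08 and 8.83 for bone marrow, 9.62, 9.77 and 9.85 for blood and 9.38, 9.62 and 8.98 for tumor, from 10021 to 19683 reads per library. Blood lay above bone marrow without overlap, and the tumor libraries ran from the bone marrow range to the lower edge of the blood range. Sat1 was 1.75-fold higher in blood than in bone marrow (log2 0.81, SE 0.17, limma adjusted p = 0.00697).

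The position of Sat1 in tumor depended on scaling and on single libraries. Against blood the difference was -0.42 (95% interval -0.82 to -0.018, limma adjusted p = 0.0654), which was 0.027 with plain totals and was called lower without tumor replicate 2, at -0.57, with quantile normalization, at -0.71, with median centring, at -0.48, and with limma-voom on recovered reads, at -0.43 (adjusted p = 0.0152). Against bone marrow it was 0.39 (95% interval -0.015 to 0.79, limma adjusted p = 0.0928), which was called higher with plain totals, at 0.84, without tumor replicate 3, at 0.56, and with limma-voom, at 0.39 (adjusted p = 0.0313).

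Smox (ENSMUSG00000027333.17, chromosome 2, 131491496 to 131525922, plus strand) encodes spermine oxidase, which turns spermine back into spermidine and releases hydrogen peroxide. Log2 FPKM values were 1.90, 1.65 and 1.14 for bone marrow, 3.24, 3.25 and 3.8005 for blood and 3.97, 4.58 and 3.95 for tumor. The groups stepped up from bone marrow through blood to tumor without overlap, the reverse of the order of Oaz1. Smox was 6.08-fold higher in tumor than in bone marrow (log2 2.60, SE 0.27, limma adjusted p = 0.000112) and 3.65-fold higher in blood than in bone marrow (log2 1.87, SE 0.27, limma adjusted p = 0.00105), both in all 22 alternatives.

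Between tumor and blood the rise of Smox was 1.67-fold (log2 0.74, SE 0.27, limma adjusted p = 0.0411). It was not called in 8 of 22 alternatives. Among them were the fits with a replicate block (adjusted p = 0.0743), without blood replicate 1 (0.64, adjusted p = 0.114), without blood replicate 2 (0.65, adjusted p = 0.117) and without tumor replicate 2 (0.53, adjusted p = 0.124). Without tumor replicate 1 the value was 0.84 with an adjusted p of 0.051, and without bone marrow replicate 2 the adjusted p was 0.0589. Tumor replicate 2 was the highest Smox library, at 6246 reads against 3338 and 4223 in the other tumor libraries.

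Differences between members inside a library do not depend on how libraries were scaled, and they are given without a test because the members differ in length and only the change between compartments can be read. The log2 difference Odc1 minus Oaz1 was -7.89 ± 0.11 (SD, n = 3) for bone marrow, -6.78 ± 0.34 for blood and -4.58 ± 0.23 for tumor, with no overlap. The balance of decarboxylase to antizyme transcript was thus higher in tumor by 2.20 than in blood and by 3.31 than in bone marrow. Odc1 minus Azin1 was -3.86 ± 0.13 in bone marrow and -3.72 ± 0.40 in blood, which overlapped, and -0.94 ± 0.18 in tumor. Odc1 minus Sat1 was likewise highest in tumor, at -9.09 ± 0.11, -9.29 ± 0.31 and -7.32 ± 0.20, again with bone marrow and blood overlapping.

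The regulators among themselves were less regular. Azin1 minus Oaz1 was -4.02 ± 0.039 for bone marrow, -3.06 ± 0.41 for blood and -3.64 ± 0.29 for tumor, and the last pair of groups overlapped. Oaz2 minus Oaz1 was -4.35 ± 0.016 in bone marrow and -4.40 ± 0.38 in tumor, which overlapped, and -3.11 ± 0.39 in blood, so Oaz2 was highest relative to Oaz1 in blood. Smox minus Sat1, a comparison of the oxidase with the acetyltransferase, stepped up from -7.37 ± 0.35 through -6.32 ± 0.24 to -5.16 ± 0.22 without overlap. Srm minus Sms was 5.18 ± 0.23 for bone marrow, 0.58 ± 2.87 for blood and 4.04 ± 0.89 for tumor.

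**Figure D3:**
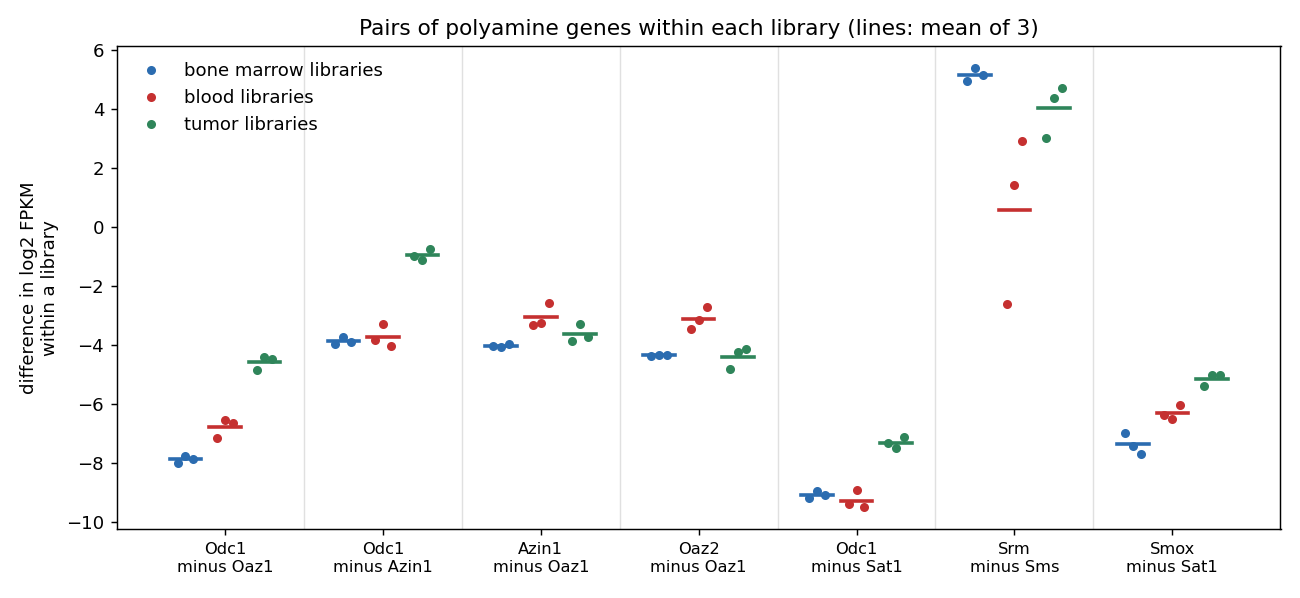
Difference in log2 FPKM between 2 members of the same library (y axis) for 7 pairs (x axis), with 1 point per library and a line at the mean of the 3 libraries of each compartment. Odc1 stands higher against Oaz1, Azin1 and Sat1 in all 3 tumor libraries than in any blood or bone marrow library.

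Around these members, 23 other genes of the pathway were listed (paralogs and other enzymes, substrate supply, transport and the hypusine branch, in which spermidine is used to modify the translation factor eIF5A). Of these, 12 entered the test, but Paox, Arg1 and Mtap passed the expression filter only through their tumor libraries, so that they had to stand higher there and are left out of the counts. Among the 9 genes that did not depend on the tumor libraries, 5 were called higher and 3 lower in tumor against blood, 6 higher and 2 lower in tumor against bone marrow, and 2 higher and 2 lower in blood against bone marrow. The background shares are those given above for all genes. Called higher in tumor against both compartments among these 9 were Mat2a, Slc3a2, Eif5a, Dhps and Dohh, and Mat2b was called lower against both.

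Arg1, the arginase that makes ornithine, had 4, 0 and 2 reads for bone marrow, 52, 31 and 40 for blood and 679, 1076 and 581 for tumor. Its tumor value differed from blood by 3.61 on the log2 scale (SE 0.98) and from bone marrow by 9.05, a size that depends on the prior count. Arg1 entered the test through its tumor libraries alone, so these differences are given as sizes only. Without the filter the difference from blood had an adjusted p of 0.077. Arg2, the second arginase, was lower in tumor than in blood by a log2 difference of -1.37 (limma adjusted p = 0.000236), and against bone marrow its difference of 0.25 did not pass (limma adjusted p = 0.239), though it was called with plain totals (0.71), with quantile normalization (0.48) and without tumor replicate 3 (0.44). Oat, which takes ornithine away to other uses, was lower in tumor than in blood (log2 -1.03) and higher than in bone marrow (log2 0.66). Agmat did not enter the test.

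The methionine side showed both directions. Mtap, which salvages the methylthioadenosine that the synthases release, differed in tumor by 4.01 from blood (SE 0.41) and by 3.72 from bone marrow. It had 14 to 42 reads per library outside the tumor and 322 to 623 in it. As Mtap entered the test through its tumor libraries alone, these differences are given as sizes only. Mat2a, the catalytic subunit that makes S-adenosylmethionine, was higher by 1.46 in both comparisons. Mat2b, its regulatory partner, was lower by log2 differences of -0.95 and -0.98.

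In the hypusine branch all 3 genes tested were higher in tumor against both compartments, beside 16.5% of all genes, and Eif5a2 did not enter the test. These 6 calls held in each alternative that gave a value, but both comparisons use the same tumor libraries. Eif5a was higher by 0.76 against blood and 0.43 against bone marrow, Dhps, the deoxyhypusine synthase, by 0.96 and 0.74, and Dohh, the hydroxylase that completes hypusine, by 2.26 and 1.15. Slc3a2, a heavy chain of amino acid transporters, was higher by 2.07 against blood (SE 0.17, limma adjusted p = 2.61e-05) and by 2.48 against bone marrow. Atp13a2, a lysosomal polyamine exporter, was lower in tumor than in bone marrow (log2 -1.27, limma adjusted p = 0.0232), and its difference of -0.91 from blood did not pass (limma adjusted p = 0.0692). The bone marrow call of Atp13a2 was lost in 7 of 21 alternatives, with plain totals (-0.82) and when any 1 bone marrow library or tumor replicate 1 or 3 was left out (-1.31 to -0.95), and the blood difference was called without tumor replicate 2 (-1.22).

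Paox, the oxidase that acts on acetylated polyamines downstream of Sat1, stood in tumor at 2.22 against blood and 1.21 against bone marrow. Paox entered the test through its tumor libraries alone, so these 2 differences are given as sizes only. It was lower in blood than in bone marrow (log2 -1.01, limma adjusted p = 0.0397). Without tumor replicate 3 the difference of Paox from bone marrow was 1.02 with an adjusted p of 0.0526, and its blood call was lost in 12 of 21 alternatives, among them those without blood replicate 2 (-1.11) or 3 (-0.71) and without any 1 bone marrow library (-1.08 to -0.94).

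**Figure D4:**
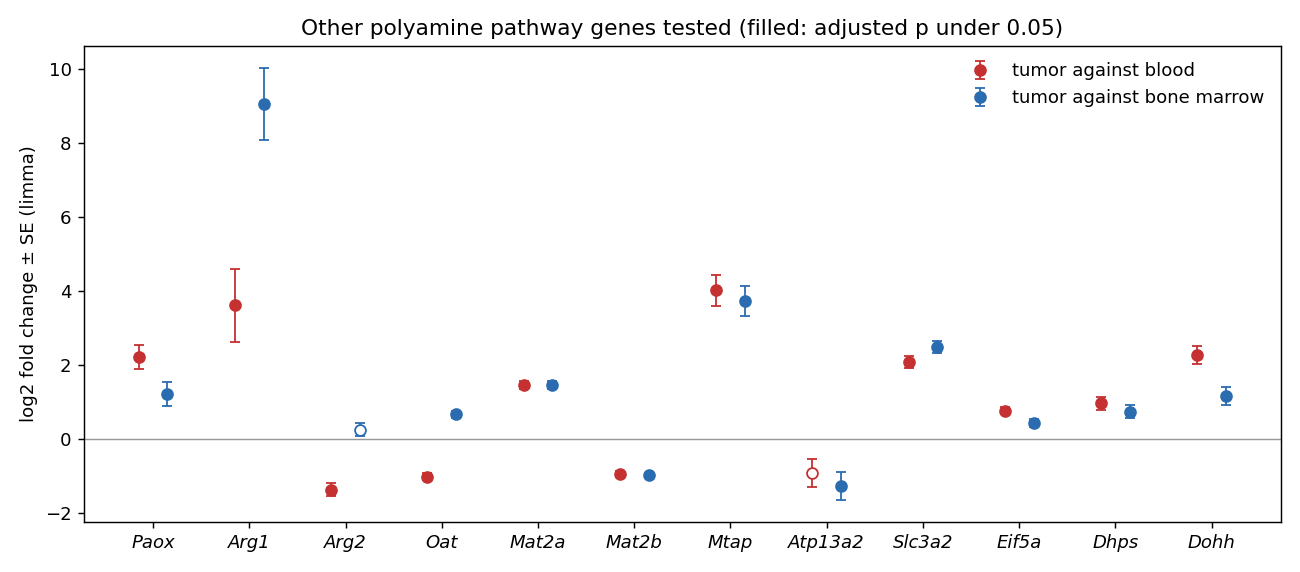
Log2 fold change ± SE (y axis) of the 12 other pathway genes tested (x axis) in tumor against blood and tumor against bone marrow, with filled circles for a limma adjusted p under 0.05. The largest values are those of Arg1, 3.61 and 9.05, and Mtap, 4.01 and 3.72, while Mat2b lies below 0 in both comparisons. Arg1, Mtap and Paox entered the test only through their tumor libraries and so had to stand higher there. Their filled circles are therefore no support for a difference.

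By the root mean square difference of row-centred log2 FPKM over the 9 libraries, the genes with a pattern most like Odc1 were Ski at 0.171, Nek6 at 0.186 and Clcn3 at 0.188, beside a median of 1.31 over all genes tested. Most like Sat1 were Nbr1 at 0.0647, Litaf at 0.0912 and Sgpl1 at 0.0939, beside a median of 0.872. Ski, for example, had mean log2 FPKM of -1.58 for bone marrow, -0.77 for blood and 0.70 for tumor.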

How the data were processed

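RNA from sorted neutrophils was made into SMARTSeq v2 libraries. Per the labels and methods, the authors aligned paired reads to GRCm38 with STAR 2.5.2b, assigned them to genes of GENCODE M7 with featureCounts 1.5.0 and deposited log2 FPKM values; edgeR 3.8.6 is also named in the submitters' processing notes. Tested against GENCODE M21, 38873 of 46005 matched genes had an FPKM length equal to the genomic span, so deposited values do not rank genes. The size of the steps between neighbouring values gave back whole reads.

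Differences were tested with limma 3.58.1 (R 4.3.3) with an intensity trend, over 7794 genes above 0 in at least 3 libraries, with Benjamini-Hochberg adjustment at 0.05. The fit was tested on simulated data. Alternatives changed the filter, pseudocount, scaling, model and libraries used. Named were all 9 members, pathway genes called against both compartments or with the 2 largest differences of their list, and the 3 nearest patterns of Odc1 and Sat1. Members and lists were chosen with earlier results of these data known.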

Additional observations from a re-analysis of the deposited data

How the results depend on the processing

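Of 24 member differences, 12 kept their direction and side of the threshold in every alternative, and of 525 alternative values 38 lost the call, 19 gained it and 6 changed sign. The sign changes were Amd1 in tumor against blood, at 0.066 with quantile normalization, 0.39 with plain totals and 0.065 without tumor replicate 1 (-0.15 to 0.065 over the libraries left out), Sat1 in tumor against blood, at 0.027 with plain totals, and Srm in tumor against bone marrow, at -0.37 without tumor replicate 3 and -0.0064 without bone marrow replicate 1 (-0.37 to 0.69 over the libraries left out); none of these was called. Members called in blood against bone marrow went from 6 to 3 without the expression filter and to 2 with a log2 fold change of at least 1. Without the filter, 1534 of 46517 genes were called higher in that comparison and 1981 lower. Members called in tumor against both compartments went from 5 to 3 without the filter, 3 with plain totals and 2 with a log2 fold change of at least 1. Matching shares over all genes are not given here for the fold change minimum or for calls against both compartments. Srm and Sms had few reads in blood, but both Srm comparisons with blood kept their call in every alternative. The cause of the changes listed was not tested.

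The study describes tumor neutrophils beside those from the other compartments of the same mouse. The sources used here do not say whether equal replicate numbers mark the same experiment, so libraries were not paired in the main fit. That fit therefore treats libraries that may share mice as independent. Deviations of same-numbered libraries correlated at -0.07 to 0.11, over 0.1 in 1 of 9 pairs. In both other compartments, 1 of 9 libraries correlated best with its own number. With 3 libraries per compartment, such correlations cannot decide whether the libraries are paired. With a replicate block, tumor neutrophils differed from blood in 5 members, from bone marrow in 5 and from both in 4, and blood neutrophils differed from bone marrow in 6. Of all 7794 genes, 2167 were then called higher and 2684 lower in tumor against blood. Against bone marrow 1708 were higher and 2533 lower in tumor, and 1578 were higher and 1805 lower in blood. The share of all genes called against both compartments is not given here for this fit, so the members' count cannot be set beside it.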
